A study of Komagataella phaffii GS115 with 12 samples.

Results

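The subject here is 72 of 2390 array rows of the methylotrophic yeast Komagataella phaffii (Pichia pastoris) strain GS115 that were lower in every engineered culture than in any empty-vector culture. The rows were chosen by measured values: the highest of the 9 values of the engineered strains had to lie below the lowest of the 3 control values. In all, 74 rows, or 3.1%, met that condition, and 2 of them were left out. YBR162W-A was left out by name, and YJL189W because all 3 of its G12-CBS 72 h values lay below the other 9 arrays. The opposite pattern, with the lowest of the 9 engineered values above the highest of the 3 control values, held for 47 rows. Because the choice used all 12 arrays against the control, the differences from control given here describe the chosen rows and carry no test.

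Each of 4 groups had 3 arrays from separate cultures, grown in BSM medium in shake flasks and induced with methanol. G12-CBS 72 h is a strain carrying the recombinant methionine adenosyltransferase gene DS56, in which the weak promoter G12 was used to turn down CYS4, collected after 72 h of methanol and fed with L-Met at 24 h. G12-CBS 24 h is the same strain collected at 24 h, before L-Met was given. DS56 is GS115/DS56, which carries the recombinant gene alone, collected at 72 h after the same feeding. The control is GS115/3.5K with the empty vector pPIC3.5K, also collected at 72 h and fed. Time and L-Met feeding therefore differ together for G12-CBS 24 h, and there was no control culture at 24 h. All 4 groups share the GS115 host and methanol induction, and the phenotype labels call G12-CBS 72 h and DS56 high producers of S-adenosylmethionine, and G12-CBS 24 h and the control low producers. The sample titles mark the strain G12-CBS as HP at both times.

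Methionine adenosyltransferase joins methionine and ATP to make S-adenosylmethionine, the methyl donor for histone, RNA, protein and lipid methylation. CYS4 encodes cystathionine beta-synthase, which draws homocysteine out of the methyl cycle towards cysteine. In budding yeast, ribosomal protein and histone genes are among the most strongly expressed. Ribosomal protein and rRNA processing genes follow growth rate, and histone genes follow the cell cycle. Each row is labelled with a systematic name from the baker's yeast Saccharomyces cerevisiae. All 72 of these names occur in the S. cerevisiae table of the SGD (sacCer2), and 0 of 72 occur among the K. phaffii RefSeq genes (ASM2700v1). Roles given below are background for the S. cerevisiae gene of that name, and the files do not show that a row measured its K. phaffii counterpart.

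Values are log2 intensities, 1 per row and array, and are compared only within a row. In these bulk RNA samples, fewer cells with a transcript and less transcript per cell cannot be told apart. Array medians lay between 6.59 and 6.66 in all 12 arrays. No detection flags were used here, so it is not known which rows near the median of all values, 6.64, stood above background.

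On the control arrays the members were brighter than the table. The choice favours this, since it asked for control values above all engineered ones. Their median control mean was 7.20, against 6.59 over all rows. Median means in G12-CBS 72 h, G12-CBS 24 h and DS56 were 6.67, 6.69 and 6.72. Over all rows these were 6.60, 6.64 and 6.64. Of the members, 25 (34.7%) had a control mean of 8 or above, against 155 rows (6.49%) of the table. Another 21 members (29.2%) lay from 7 to 8, against 257 rows (10.8%), and 26 (36.1%) lay under 7, against 1978 rows (82.8%). The highest control mean among members was 15.58, at YLR075W.

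**Figure D1:**
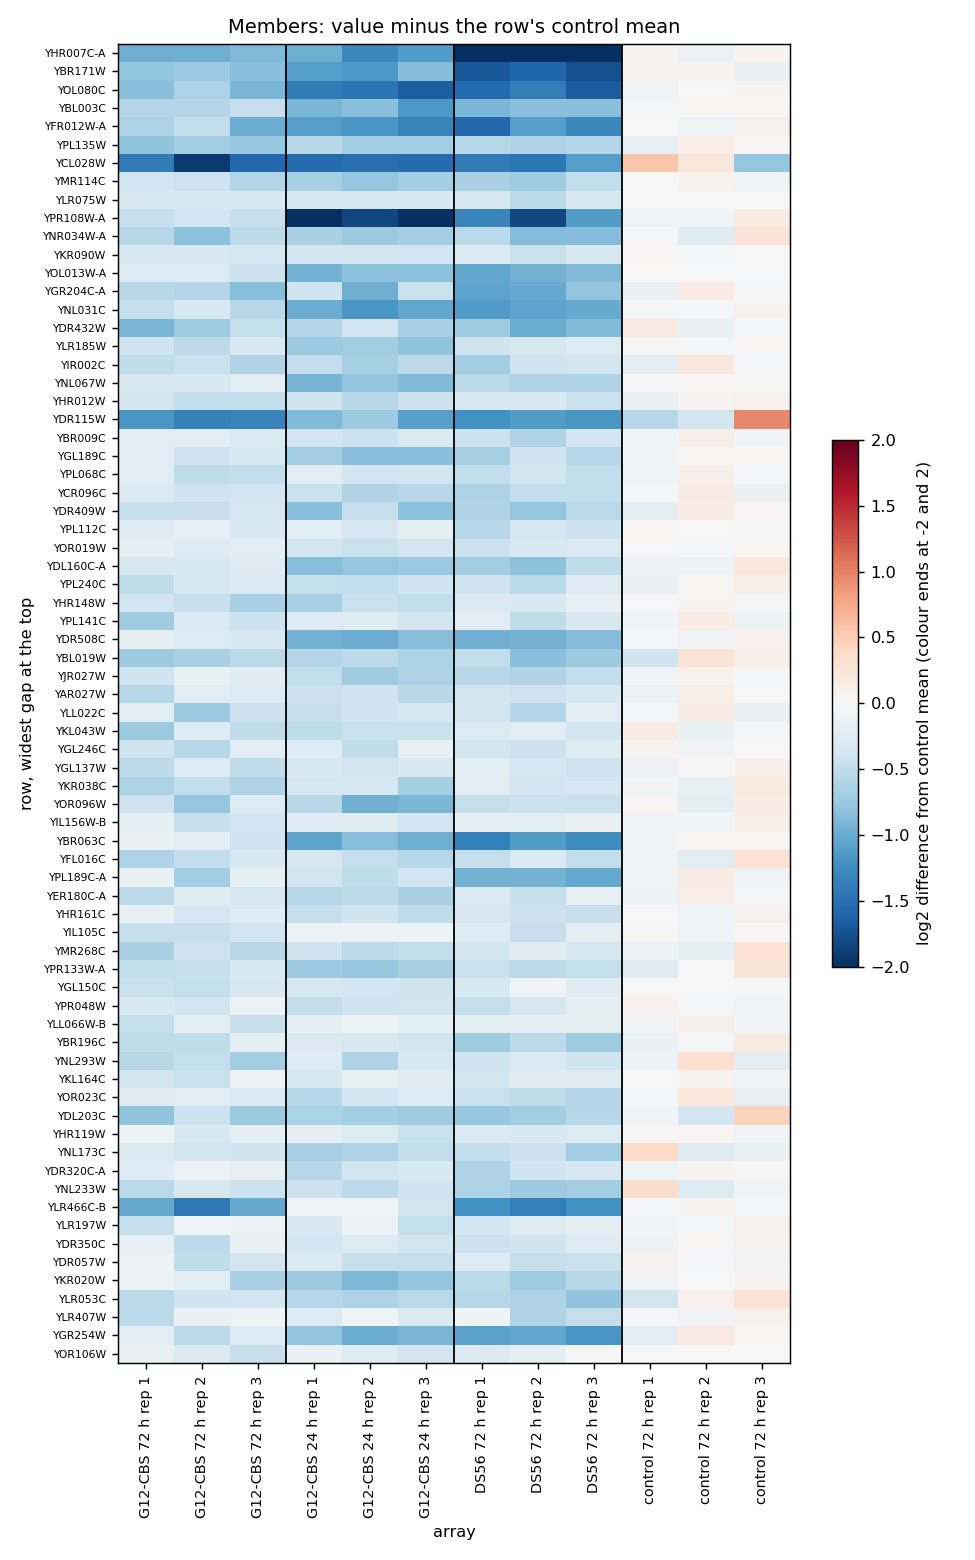
Differences of the 72 members from their control mean on the log2 scale, 1 line per row and 1 column per array, with the arrays ordered G12-CBS 72 h, G12-CBS 24 h, DS56 and control. Colours stop at the ends of the scale. All 9 engineered columns lie below the control columns in every line, as the choice requires, and the depth of colour varies between rows and engineered groups.

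Most falls were small. The median difference from control was -0.41 in G12-CBS 72 h (1.33-fold lower), -0.47 in G12-CBS 24 h (1.38-fold lower) and -0.48 in DS56 (1.39-fold lower). Over all rows the medians were -0.02, 0.04 and 0.04 in the same order of groups. Falls of at least 2-fold in the group mean were seen in 3 members in G12-CBS 72 h, where 0.251% of all rows reached that size. In G12-CBS 24 h there were 7 such members (0.753% of all rows) and in DS56 11 (0.628% of all rows). A fall of 1.5-fold or more in all 3 engineered groups was shared by 10 members, out of 13 rows of the table.

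The median spread of 3 cultures among members was 0.12 in G12-CBS 72 h, 0.08 in G12-CBS 24 h, 0.10 in DS56 and 0.10 in the control (SD, n = 3). Over all rows these medians were 0.18, 0.09, 0.11 and 0.19. The choice favours rows with little spread, so smaller spreads among members are partly built in. The tests between engineered groups below draw on the same spreads. In 7 members the control SD was above 0.3. These are YCL028W, YDR115W, YBL019W, YDL203C, YNL173C, YNL233W and YLR053C.

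The widest separation from control belonged to YHR007C-A, an S. cerevisiae name with no role given here and a coding length of 216 bases. It read 14.24, 14.24 and 14.32 in G12-CBS 72 h, 14.24, 13.92 and 14.09 in G12-CBS 24 h, 12.55, 12.42 and 12.73 in DS56, and 15.27, 15.10 and 15.27 in the control. The DS56 cultures lay furthest down, 6.25-fold below control in the mean, against 1.92-fold in G12-CBS 72 h and 2.18-fold in G12-CBS 24 h. Its highest engineered value stood 0.77 below its lowest control value.

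YBR171W bears the name of SEC66, a subunit of the complex that imports finished proteins into the endoplasmic reticulum. Its values were 8.87, 8.94 and 8.83 in G12-CBS 72 h, 8.57, 8.52 and 8.79 in G12-CBS 24 h, 7.97, 8.07 and 7.91 in DS56, and 9.74, 9.71 and 9.53 in the control. As in YHR007C-A, the DS56 cultures were the lowest of all and overlapped with neither other engineered group, with a mean 3.20-fold below control.

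YOL080C is the name of REX4, a putative RNA exonuclease of rRNA processing. It read 7.08, 7.28 and 7.00 in G12-CBS 72 h, 6.51, 6.43 and 6.26 in G12-CBS 24 h, 6.35, 6.53 and 6.25 in DS56, and 7.85, 7.91 and 7.97 in the control. G12-CBS 24 h and DS56 overlapped, at 2.85-fold and 2.90-fold below control, and G12-CBS 72 h stood between them and the control at 1.73-fold.

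YPR108W-A, another short name with no role given, showed the deepest fall of any member in G12-CBS 24 h. Its values were 12.65, 12.73 and 12.65 in G12-CBS 72 h, 10.79, 11.28 and 10.90 in G12-CBS 24 h, 11.80, 11.28 and 11.99 in DS56, and 13.04, 13.04 and 13.26 in the control. G12-CBS 24 h was 4.34-fold and DS56 2.68-fold below control, whereas G12-CBS 72 h was 1.35-fold below it.

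YCL028W, the name of the prion protein RNQ1, was the member with the largest fall in G12-CBS 72 h and the only one at least 2-fold lower in all 3 engineered means. Its values were 6.87, 6.36 and 6.70 in G12-CBS 72 h, 6.73, 6.76 and 6.72 in G12-CBS 24 h, 6.86, 6.82 and 7.16 in DS56, and 8.83, 8.49 and 7.49 in the control. The control cultures were themselves spread over more than a log2 unit, with an SD of 0.69, and the third lay closest to the engineered values.

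**Figure D2:**
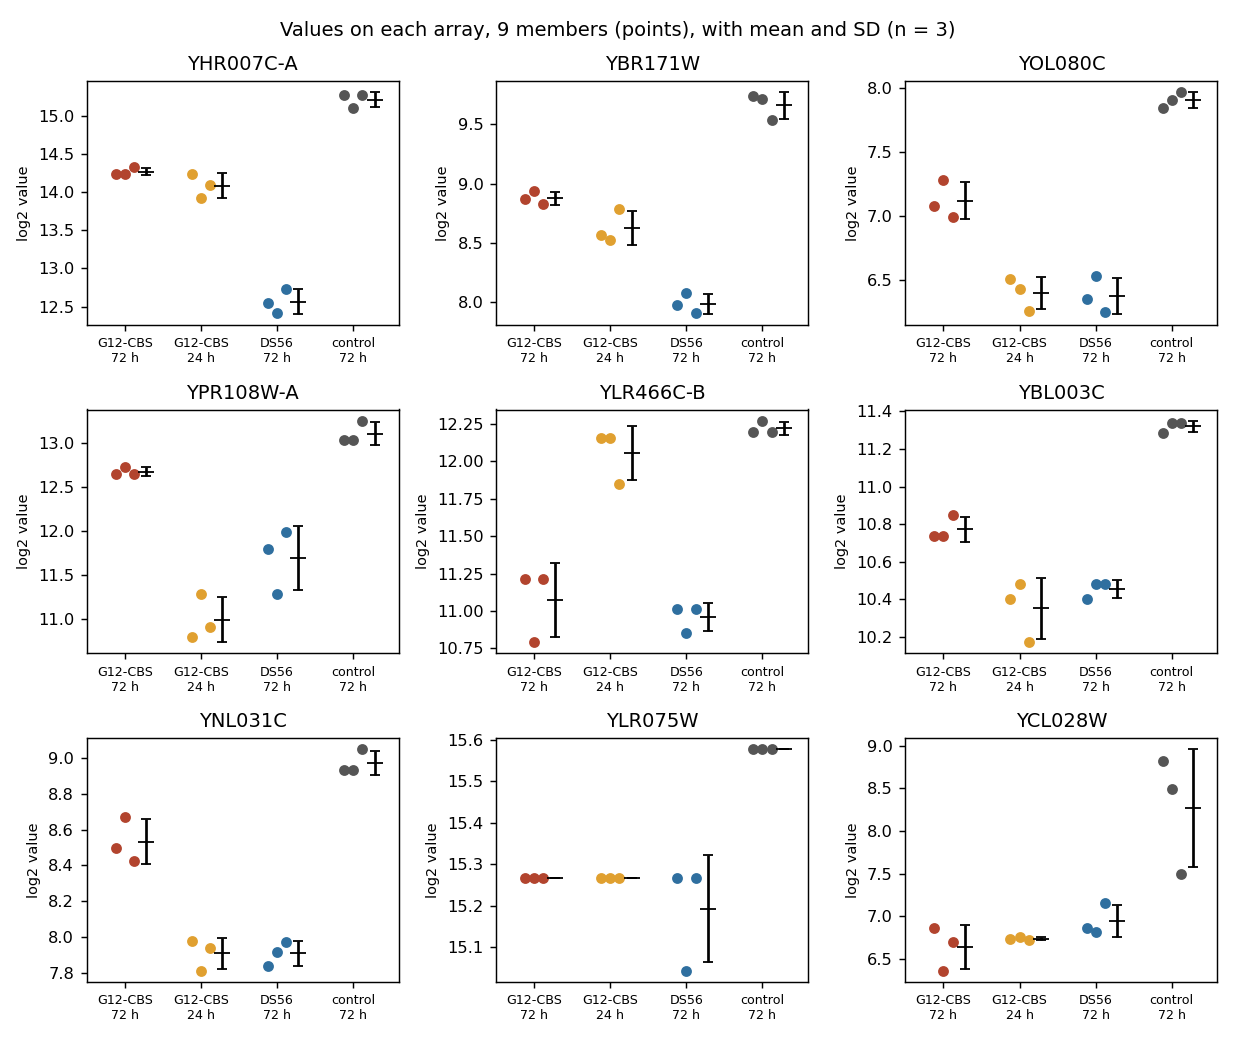
Log2 value of 9 members in each array, with points for single cultures and, beside them, the mean and SD of 3, grouped as G12-CBS 72 h, G12-CBS 24 h, DS56 and control, on an axis of its own for each row. YHR007C-A and YBR171W are lowest in DS56, YPR108W-A is lowest in G12-CBS 24 h, and YLR466C-B is close to control in G12-CBS 24 h alone.

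The remaining rows among the 10 with the widest separation had lower levels or smaller sizes. YFR012W-A, with no role given, read 6.67, 6.81 and 6.31 in G12-CBS 72 h, 6.21, 6.15 and 5.97 in G12-CBS 24 h, 5.74, 6.20 and 6.02 in DS56, and 7.30, 7.21 and 7.40 in the control. YPL135W, the name of ISU1, a scaffold for iron-sulfur cluster assembly, read 6.34, 6.45 and 6.38 in G12-CBS 72 h, 6.59, 6.45 and 6.44 in G12-CBS 24 h, 6.57, 6.52 and 6.56 in DS56, and 6.97, 7.27 and 7.18 in the control. Both sit near the median of the table. YMR114C, with no role given, read 8.81, 8.79 and 8.60 in G12-CBS 72 h, 8.53, 8.41 and 8.50 in G12-CBS 24 h, 8.54, 8.49 and 8.70 in DS56, and 9.19, 9.27 and 9.13 in the control, a fall of 1.38- to 1.64-fold in the engineered means.

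Histone names made up 3 of the members, out of 8 of the list in the table, against 3.01% of all rows. All 3 had control means of 8 or above, where 25 of 155 rows were members. The share was not matched for level. Histones package DNA, and each core histone has a pair of genes in S. cerevisiae. YBL003C (HTA2, histone H2A) read 10.74, 10.74 and 10.85 in G12-CBS 72 h, 10.40, 10.48 and 10.17 in G12-CBS 24 h, 10.40, 10.48 and 10.48 in DS56, and 11.28, 11.34 and 11.34 in the control. YNL031C (HHT2, histone H3) read 8.50, 8.67 and 8.43 in G12-CBS 72 h, 7.98, 7.81 and 7.93 in G12-CBS 24 h, 7.83, 7.92 and 7.97 in DS56, and 8.94, 8.94 and 9.05 in the control. In both, G12-CBS 72 h lay between the other engineered groups and the control without touching either.

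YBR009C (HHF1, histone H4) differed less. Its values were 13.26, 13.26 and 13.19 in G12-CBS 72 h, 13.10, 13.04 and 13.19 in G12-CBS 24 h, 13.04, 12.86 and 13.10 in DS56, and 13.41, 13.58 and 13.41 in the control. G12-CBS 24 h overlapped with both other engineered groups, while every DS56 value lay below every G12-CBS 72 h value, and the engineered means were 1.18- to 1.39-fold below control. With YDR502C taken out, as described with the ranks below, its differences from control were -0.08 in G12-CBS 72 h, -0.22 in G12-CBS 24 h and -0.32 in DS56, compared with -0.24, -0.36 and -0.47 as deposited, and it no longer met the rule.

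The rows named for the other S. cerevisiae copy of each of these histones were not members. YDR225W (H2A) averaged 9.98 in G12-CBS 72 h, 9.40 in G12-CBS 24 h, 9.49 in DS56 and 9.88 in the control. YBR010W (H3) averaged 12.90, 13.18 and 13.05 in the engineered groups in that order and 13.08 in the control, and YNL030W (H4) 13.92, 13.95, 13.92 and 14.12. The files do not say whether probes for such near-identical genes could bind each other's transcripts.

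Counts against control over whole lists are given as a description, since that contrast chose the members. By limma with Benjamini-Hochberg adjustment over all rows, the list of 8 histone rows had 2 lower in G12-CBS 72 h, 5 in G12-CBS 24 h and 4 in DS56, with 0 higher in each. Of those called, 2, 3 and 3 were members in the same order of groups, so nothing is read from the count. Over all rows 4.18% were lower and 5.02% higher in G12-CBS 72 h, 6.86% lower and 12.9% higher in G12-CBS 24 h, and 6.07% lower and 12.1% higher in DS56. The list's median difference from control was -0.19 in G12-CBS 72 h, -0.42 in G12-CBS 24 h and -0.39 in DS56.

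Chromatin proteins other than histones accounted for another 4 members, all with small differences. YLL022C (HIF1, a partner of a histone acetyltransferase) was 0.46 lower in G12-CBS 72 h and 0.39 lower in G12-CBS 24 h and DS56. YHR119W (SET1, the methyltransferase for lysine 4 of histone H3, which uses S-adenosylmethionine) was 0.19, 0.30 and 0.28 lower in G12-CBS 72 h, G12-CBS 24 h and DS56. The other two bear the names of INO80, a chromatin remodelling ATPase, and AHC1, a subunit of the Ada acetyltransferase complex. Classes of role were set after the values were seen, and no class was tested.

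Ribosomal protein names gave 5 members, 3 of 63 rows of the large subunit and 2 of 44 of the small one. The shares were 4.76% and 4.55%, against 3.01% of all rows. They were not matched for level, and of the 5 only YOR096W had a control mean under 8. The brightest member of all was YLR075W (RPL10, large subunit). It read 15.27 in all 3 cultures of G12-CBS 72 h and of G12-CBS 24 h, 15.27, 15.04 and 15.27 in DS56, and 15.58 in all 3 control cultures. Such repeated values are exact steps of a scale shared by all arrays, as described with the ranks below.

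YNL067W (RPL9B, large subunit) read 12.47, 12.47 and 12.55 in G12-CBS 72 h, 11.85, 11.99 and 11.90 in G12-CBS 24 h, 12.23, 12.16 and 12.16 in DS56, and 12.73, 12.80 and 12.80 in the control. YLR185W (RPL37A, large subunit) read 11.08, 10.96 and 11.16 in G12-CBS 72 h, 10.76, 10.79 and 10.68 in G12-CBS 24 h, 11.08, 11.16 and 11.21 in DS56, and 11.51, 11.44 and 11.51 in the control. Both were lowest in G12-CBS 24 h, with all 3 values below those of every other array.

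Among small subunit names, YGL189C (RPS26A) read 8.84, 8.63 and 8.74 in G12-CBS 72 h, 8.36, 8.22 and 8.22 in G12-CBS 24 h, 8.39, 8.65 and 8.49 in DS56, and 9.001, 9.08 and 9.08 in the control. YOR096W (RPS7A) read 6.91, 6.55 and 7.06 in G12-CBS 72 h, 6.77, 6.37 and 6.42 in G12-CBS 24 h, 6.86, 6.90 and 6.89 in DS56, and 7.35, 7.15 and 7.48 in the control. The mean of G12-CBS 24 h was again the lowest of the 4 groups in both.

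By their medians the ribosomal lists did not fall as the members did, and rows past the threshold went both ways. Their medians against control in G12-CBS 72 h, G12-CBS 24 h and DS56 were -0.05, 0.01 and 0.00 for the large subunit and -0.03, 0.13 and 0.29 for the small one. As a description, of 63 rows the large subunit had 4 lower and 4 higher past the threshold in G12-CBS 72 h. It had 15 lower and 12 higher in G12-CBS 24 h, and 12 lower and 17 higher in DS56. Of 44 rows the small subunit had 5 lower and 2 higher, 12 lower and 11 higher, and 5 lower and 14 higher. Of all rows, 4.18%, 6.86% and 6.07% were lower and 5.02%, 12.9% and 12.1% higher in the same order of groups. Members made up 1, 2 and 3 of the lower rows of the large subunit and 1, 2 and 2 of those of the small one.

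The rows for other S. cerevisiae copies differed among themselves. YGL147C, the other RPL9 name, averaged 10.77 in G12-CBS 72 h, 9.57 in G12-CBS 24 h and 9.92 in DS56, against 10.81 in the control, and so lay close to control in G12-CBS 72 h alone. YER131W, the other RPS26 name, averaged 10.01, 9.87 and 10.02 in the engineered groups in that order and 10.01 in the control. YDR500C, the other RPL37 name, was above control, averaging 6.54 in G12-CBS 72 h, 7.30 in G12-CBS 24 h and 7.52 in DS56, against 6.43 in the control.

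Besides REX4, rRNA processing was represented by the names of IMP3 (YHR148W), a component of the U3 processome, RAI1 (YGL246C), a partner of the nuclear exonuclease Rat1, and NOP56 (YLR197W), a core protein of box C/D snoRNPs that guide rRNA methylation. YHR148W averaged 7.26 ± 0.14 in G12-CBS 72 h, 7.23 ± 0.11 in G12-CBS 24 h, 7.51 ± 0.07 in DS56 and 7.76 ± 0.05 in the control (SD, n = 3). YLR197W averaged 6.62 ± 0.21, 6.55 ± 0.19 and 6.56 ± 0.10 in the engineered groups in that order and 6.84 ± 0.07 in the control, and its groups were separated by 0.04.

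Central carbon metabolism gave 2 members of 14 rows (14.3%), against 3.01% of all rows. Both had control means of 8 or above, where 25 of 155 rows were members. The share was not matched for level. YGR254W (ENO1, the glycolytic enolase) read 7.99, 7.66 and 7.93 in G12-CBS 72 h, 7.42, 7.22 and 7.30 in G12-CBS 24 h, 7.14, 7.17 and 7.04 in DS56, and 8.00, 8.39 and 8.23 in the control. One culture of G12-CBS 72 h came within 0.01 of the lowest control culture, while DS56 averaged 2.13-fold below control. YBR196C (PGI1, phosphoglucose isomerase) read 9.53, 9.53 and 9.84 in G12-CBS 72 h, 9.74, 9.71 and 9.67 in G12-CBS 24 h, 9.32, 9.51 and 9.32 in DS56, and 9.89, 9.9996 and 10.21 in the control. The row for the other enolase copy, YHR174W, averaged 7.74, 7.51 and 7.48 in the engineered groups in that order and 7.61 in the control, and was not a member.

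Chaperones gave 1 member of 12 rows (8.33%, against 3.01% of all rows), YPL240C (HSP82, the Hsp90 chaperone). This row too had a control mean of 8 or above, where 25 of 155 rows were members. It read 7.98, 8.14 and 8.19 in G12-CBS 72 h, 8.01, 8.00 and 8.09 in G12-CBS 24 h, 8.09, 7.94 and 8.22 in DS56, and 8.35, 8.50 and 8.60 in the control. The 3 engineered groups overlapped. The lists of translation factors (16 rows), respiratory chain and ATP synthase (20 rows), proteasome (12 rows) and the sulfur amino acid and methyl cycle (13 rows) held 0 members.

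As a description of the contrast that chose the members, the carbon list had past the threshold 0 rows higher and 0 lower in G12-CBS 72 h, 4 higher and 4 lower in G12-CBS 24 h, and 4 higher and 5 lower in DS56, with 0, 1 and 2 members among the lower rows. Chaperones had 0 higher and 1 lower in each group, which was the member YPL240C in G12-CBS 24 h and in DS56. Translation factors had 2 higher and 1 lower in both G12-CBS groups, and 1 higher and 1 lower in DS56. The respiratory list had 2 higher and 0 lower in G12-CBS 72 h. It had 5 higher and 1 lower in G12-CBS 24 h, and 4 higher and 2 lower in DS56. Over all rows 5.02% were higher and 4.18% lower in G12-CBS 72 h. These shares were 12.9% and 6.86% in G12-CBS 24 h, and 12.1% and 6.07% in DS56. With so few rows in each list, nothing is read from these counts.

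The methyl cycle list had 3 rows higher and 1 lower in G12-CBS 72 h against control. In G12-CBS 24 h and in DS56 it had 2 higher and 0 lower. This list includes YDR502C, the name of a methionine adenosyltransferase, the kind of enzyme that the recombinant gene DS56 encodes. YDR502C ranked 1 or 2 on the engineered arrays and 55 to 69 on the control arrays. The list was also drawn up with CYS4 in it, the gene turned down in G12-CBS. Its counts are therefore not read as a response of the pathway. The proteasome list had 1, 3 and 4 rows higher in G12-CBS 72 h, G12-CBS 24 h and DS56, and 0 lower. Its medians were -0.05, 0.31 and 0.22, against -0.02, 0.04 and 0.04 over all rows. Of all rows, 5.02%, 12.9% and 12.1% were higher and 4.18%, 6.86% and 6.07% lower in that order. With so few rows in these lists, nothing is read from their counts.

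Membrane traffic and secretion, beside SEC66, held names of the retromer subunit VPS29, the COPI coat subunit SEC27, the clathrin adaptor YAP1801, the Rab GTPase-activating protein MSB3, the ER quality control lectin YOS9, the GARP tether VPS51, the vacuolar syntaxin VAM3 and SLO1, a partner of an Arf-like GTPase. Apart from YBR171W all had control means under 8. Median differences over the 9 rows were -0.38 in G12-CBS 72 h, -0.45 in G12-CBS 24 h and -0.36 in DS56. YKR020W (VPS51) showed the second largest fall of this class in G12-CBS 24 h, 0.80.

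Mitochondrial names gave 6 members, with median differences of -0.45 in G12-CBS 72 h, -0.55 in G12-CBS 24 h and -0.54 in DS56. YPL189C-A (COA2, an assembly factor of cytochrome c oxidase) averaged 10.29 ± 0.31 in G12-CBS 72 h, 10.19 ± 0.07 in G12-CBS 24 h, 9.65 ± 0.05 in DS56 and 10.62 ± 0.12 in the control (SD, n = 3). YDR115W (MRX14, a putative mitochondrial ribosomal protein) was 2.43-, 1.86- and 2.24-fold below control in the same order, but its control SD was 0.83. The 4 names of DNA repair and chromosome function, MPH1, MHF2, APN2 and DAD4, had falls of 0.18 to 0.79.

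Single names of other function included YDR508C (GNP1, an amino acid permease that prefers glutamine), YDR432W (NPL3, an mRNA export and splicing protein), YPL112C (PEX25, of peroxisome proliferation) and YKL164C (PIR1, a cell wall protein). YDR508C averaged 9.16 ± 0.07 in G12-CBS 72 h, 8.49 ± 0.07 in G12-CBS 24 h, 8.49 ± 0.05 in DS56 and 9.42 ± 0.08 in the control (SD, n = 3). Of the 72 members, 54 have a stated role in S. cerevisiae and 18 were given none here.

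Short names were frequent among members. A coding length of at most 300 bases in S. cerevisiae belonged to 15 members (20.8%), against 135 rows (5.65%) of the table. The share among rows with a control mean of 8 or above was 8 of 25 members (32%) and 28 of 155 rows (18.1%). Names with a letter suffix, given to open reading frames added to the annotation later, made up 14 members (19.4%) and 5.73% of all rows. The median coding length was 1064 bases among members and 1133 over all rows.

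Of the 6 brightest members, 4 are short names with no role given: YHR007C-A and YPR108W-A, described above, YLL066W-B and YOL013W-A. YLL066W-B read 14.68, 14.95 and 14.68 in G12-CBS 72 h, 14.95, 15.04 and 14.95 in G12-CBS 24 h, 14.95 in all 3 DS56 cultures, and 15.10, 15.27 and 15.10 in the control. YOL013W-A read 13.41, 13.41 and 13.26 in G12-CBS 72 h, 12.73, 12.86 and 12.86 in G12-CBS 24 h, 12.65, 12.73 and 12.80 in DS56, and 13.69 in all 3 control cultures. The first of these was within 1.31-fold of control in every engineered mean, and the second stood 1.25-fold below it in G12-CBS 72 h and 1.82- and 1.94-fold below it in G12-CBS 24 h and DS56.

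YLR466C-B, a short name with no role given, was close to control in 1 engineered group. It read 11.21, 10.79 and 11.21 in G12-CBS 72 h, 12.16, 12.16 and 11.85 in G12-CBS 24 h, 11.01, 10.85 and 11.01 in DS56, and 12.19, 12.27 and 12.19 in the control. G12-CBS 24 h averaged 1.12-fold below control, against 2.21-fold for G12-CBS 72 h and 2.40-fold for DS56. In S. cerevisiae this name lies on chromosome XII, 6467 bases from a chromosome end, and YLL066W-B lies on the same chromosome 5604 bases from an end (sacCer2).

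**Figure D3:**
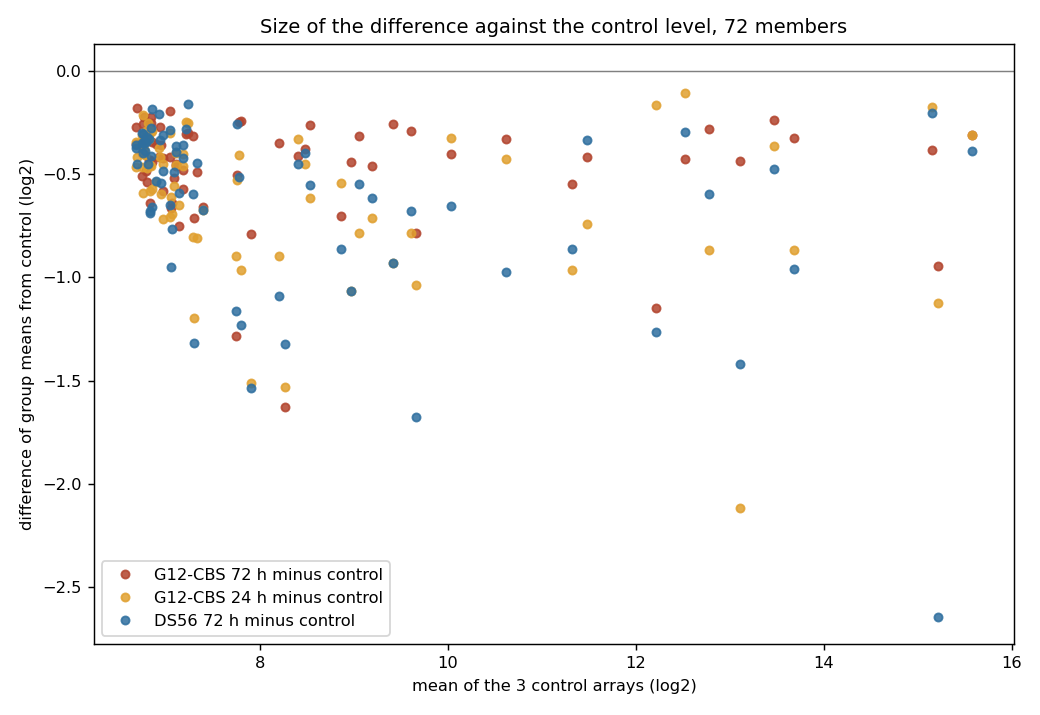
Difference of group means from control on the log2 scale (vertical) against the mean of the 3 control arrays (horizontal) for the 72 members, with G12-CBS 72 h in red, G12-CBS 24 h in yellow and DS56 in blue. Most points near a control mean of 7 lie close together just below 0, and the 2 largest falls, YHR007C-A in DS56 and YPR108W-A in G12-CBS 24 h, belong to bright rows.

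Members with a control mean of 8 or above had median differences of -0.40 in G12-CBS 72 h, -0.74 in G12-CBS 24 h and -0.68 in DS56. Those from 7 to 8 had -0.49, -0.61 and -0.51 in the same order, and those under 7 had -0.36, -0.41 and -0.35. The brightest members thus had the largest median fall in G12-CBS 24 h and DS56, and the members from 7 to 8 in G12-CBS 72 h. G12-CBS 72 h was the highest of the engineered means in 41 members (56.9%), against 37.5% of all rows, and the lowest in 18 (25%), against 48.1% of all rows. Among rows with a control mean of 8 or above, G12-CBS 72 h was the highest in 17 of 25 members and in 65 of 155 rows. The choice itself removed rows with G12-CBS 72 h lowest, here YJL189W. How far the choice shaped these shares was not tested.

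The bright values followed ranks. The 179 highest ordered values were identical on all 12 arrays within 1e-06, with levels of 15.76, 15.58, 15.45 and 15.27 at the top, so a bright row's value on an array is set by its rank there. YDR502C, which is not a member and in S. cerevisiae names a methionine adenosyltransferase, SAM2, ranked 1 or 2 on all engineered arrays and 55 to 69 on the control arrays. On every control array 11 members were brighter than it, and each of them was therefore passed by at least that row on the engineered arrays. YLR075W ranked 4 on 8 engineered arrays and 6 on the other, against 2 on the control arrays, and YHR007C-A ranked 10 or 11 in G12-CBS 72 h, 11 to 14 in G12-CBS 24 h and 25 to 29 in DS56, against 4 or 5 in the control.

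**Figure D4:**
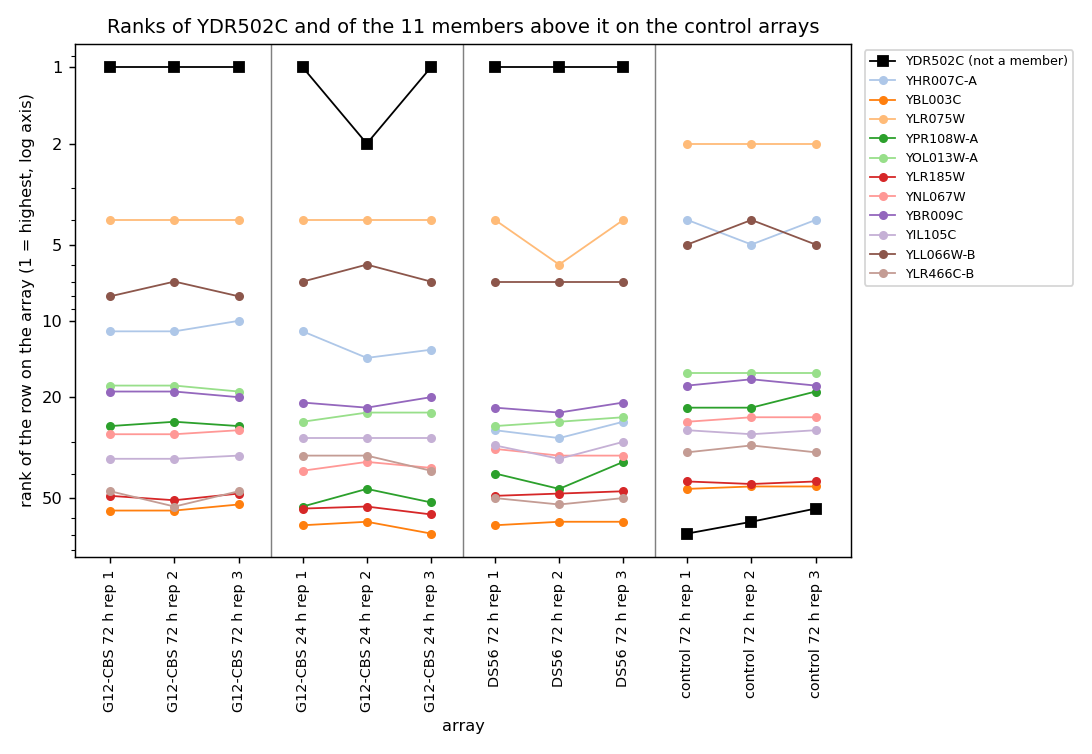
Rank of YDR502C (black squares) and of the 11 members above it on the control arrays, 1 being the highest value of the array, on a log axis. YDR502C moves to rank 1 or 2 on the engineered arrays, YLR075W and YLL066W-B are displaced by a few ranks, and YHR007C-A is displaced furthest in DS56.

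With YDR502C taken out and the arrays quantile-normalized again, a setting chosen after seeing the data, 67 of the 72 members still met the rule. The 5 that did not were YBR009C, YPL189C-A, YIL105C, YLL066W-B and YLR466C-B. YLR075W then differed from control by -0.17 in G12-CBS 72 h, -0.17 in G12-CBS 24 h and -0.25 in DS56, compared with -0.31, -0.31 and -0.38 as deposited. YHR007C-A differed by -0.82, -0.9998 and -2.53.

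The engineered groups were then compared with each other. G12-CBS 24 h and DS56 differ in strain, methanol time and L-Met feeding at once, and these cannot be told apart. Neither condition of the choice set G12-CBS 24 h against DS56, but both used the values of these arrays, which also enter the test. In limma's test 3 members were higher and 1 lower past an adjusted p of 0.05. Of all rows, 0.544% were higher and 0.418% lower. These calls therefore describe chosen rows. At an unadjusted p under 0.05 there were 8 members higher and 6 lower. The median difference was -0.01 over members and 0.01 over all rows. All 23 rows called in this comparison had control means of 8 or above, where members had 3 of 25 higher and all rows 13 of 155.

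YHR007C-A was 1.52 higher in G12-CBS 24 h than in DS56 (SE 0.13, 2.87-fold, adjusted p = 1.89e-07). YLR466C-B was 1.10 higher (SE 0.14, 2.14-fold, adjusted p = 3.7e-05), and YBR171W 0.64 higher (SE 0.12, 1.56-fold, adjusted p = 0.00593). In these 3 rows each G12-CBS 24 h culture lay above each DS56 culture. YPR108W-A was lower by 0.70 on the log2 scale (difference -0.70, SE 0.16, adjusted p = 0.0387), and one culture of each group shared the value 11.28.

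The last of these calls was the least firm. YPR108W-A missed the threshold under 6 of 20 alternatives, with adjusted p reaching 0.373. YBR171W missed it only without replicate 3 of G12-CBS 24 h, where the adjusted p was 0.0738. YHR007C-A and YLR466C-B kept the call under all 20.

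G12-CBS 72 h against DS56 had 13 members higher and 0 lower, where 8.33% of all rows were higher and 14.1% lower. This count is a description, as the choice used these values and removed YJL189W, in which G12-CBS 72 h lay below all other arrays. That row was among the rows called lower. YJL189W averaged 7.49 in G12-CBS 72 h, 9.53 in G12-CBS 24 h and 9.85 in DS56, against 10.73 in the control. The largest differences among members were 1.70 at YHR007C-A, 0.99 at YBR063C, 0.99 at YPR108W-A and 0.89 at YBR171W. Members with a control mean of 8 or above had 10 of 25 higher (40%), against 25.2% of all such rows.

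G12-CBS 72 h against G12-CBS 24 h, in which 72 h and L-Met feeding go together, had 15 members higher and 2 lower, where 8.24% of all rows were higher and 14.6% lower. This too is a description, since the choice used these values and removed YJL189W, which was called lower here as well. The comparison shares the G12-CBS 72 h arrays with the preceding one. Members with a control mean of 8 or above had 11 of 25 higher (44%) and 2 lower (8%), against 29% and 25.8% of all such rows. Members under 8 had 4 of 47 higher (8.51%) and 0 lower, against 6.8% and 13.8% of all such rows. YPR108W-A was 1.68 higher, YBR063C 0.72, YOL080C 0.72 and the amino acid permease name YDR508C 0.67. The histone names YNL031C and YBL003C were 0.63 and 0.42 higher, and the ribosomal names YNL067W, YGL189C and YLR185W 0.59, 0.47 and 0.32. The 2 lower were YLR466C-B (-0.98) and YIL105C (-0.32), the name of SLM1, a phosphoinositide-binding effector of TORC2.

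**Figure D5:**
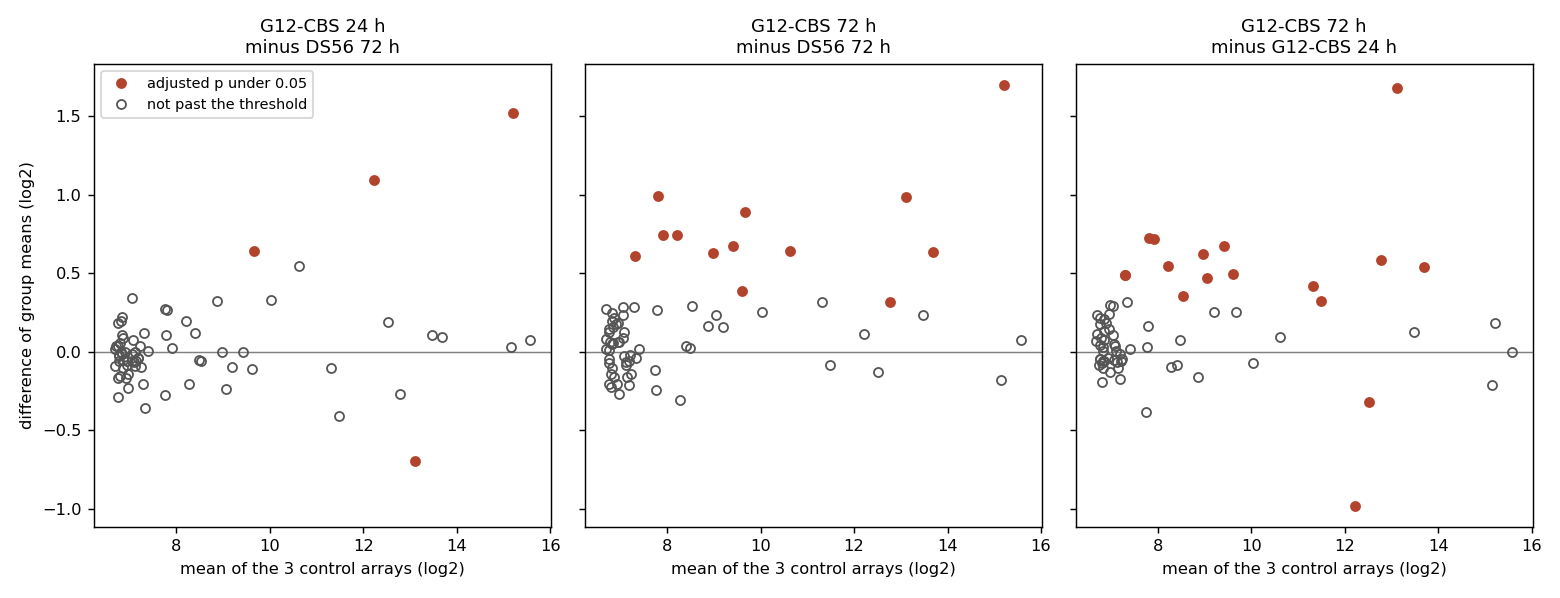
Differences of the 72 members between engineered group means on the log2 scale (vertical) against the control mean (horizontal), 1 panel each for G12-CBS 24 h minus DS56, G12-CBS 72 h minus DS56 and G12-CBS 72 h minus G12-CBS 24 h, with filled points for members past an adjusted p of 0.05. The first panel has 4 filled points, the second 13, all above 0, and the third 17, of which 2 are below 0.

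Rows at the edge of the choice show how narrow it can be. Just inside, YOR106W (VAM3) read 7.08, 6.94 and 6.77 in G12-CBS 72 h, 7.10, 6.97 and 6.87 in G12-CBS 24 h, 6.95, 7.06 and 7.22 in DS56, and 7.24, 7.23 and 7.22 in the control. YLR407W, with no role given, read 6.23, 6.63 and 6.66 in G12-CBS 72 h, 6.49, 6.68 and 6.48 in G12-CBS 24 h, 6.66, 6.15 and 6.28 in DS56, and 6.74, 6.69 and 6.85 in the control. The smallest distances between the lowest control and highest engineered value were 0.0046 at YOR106W, 0.00913 at YGR254W and 0.0102 at YLR407W, where the median over members was 0.10.

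Just outside, 5 rows had equal values at that edge, of which 3 are given. YER166W averaged 6.43 in G12-CBS 72 h, 6.34 in G12-CBS 24 h and 6.56 in DS56, against 6.77 in the control. YKL152C averaged 8.38, 8.19 and 8.02 in the same order, against 8.72, and YLR154C-H 15.58, 15.64 and 15.58, against 15.76. YBR162W-A, left out by name, averaged 8.09, 8.14 and 8.44 in the engineered groups and 9.94 in the control, with a distance of 1.20.

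The choice was repeated with 1 array left out at a time. Without control replicate 1, 2 or 3 it took 140, 128 and 125 rows, and the 72 members are by construction the rows among them in which the control array left out also lay above all 9 engineered values. They are 51.4%, 56.2% and 57.6% of the rows taken. Over all rows, 15%, 15.5% and 15.4% had that control array above all 9, but the rows taken were already chosen on the same 9 engineered arrays, so nothing is read from the difference. Without 1 engineered array it took 72 to 89 rows. Of these, 77.5% to 98.6% also had the array left out below all control values, as had 21.4% to 29.9% of all rows. The rows taken were already chosen on the same control arrays, so nothing is read from that difference either. The lowest share among rows taken, 77.5%, came with G12-CBS 72 h replicate 1 left out.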

How the data were processed

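RNA from 12 cultures was measured on 1-colour (Cy3) NimbleGen arrays. The design text gives 5777 genes and 8 probes for each. The deposited table holds a log2 value for every row and culture, made with RMA per the submitters' processing notes. How background was corrected, and with which probes, is not given here. All 2390 rows of the table were used as deposited. Groups come from the labels, which name separate cultures. The choice of rows, lists and tests was made with earlier results of these data known. Named rows were the 10 with the widest separation, the 6 with the highest control mean, the 3 narrowest, 3 just outside, members called in G12-CBS 24 h against DS56, and members on 9 role lists. Other rows were named after their values were seen. Comparisons used limma 3.58.1 in R 4.3.3 (lmFit, eBayes, 1 model of 4 groups, two-sided, Benjamini-Hochberg over 2390 rows), tested on simulated data. Names were matched with GenomicFeatures 1.54.1. Python 3.11.15 with pandas 2.3.3 was used for counts. Same-numbered arrays had correlations of -0.12 to 0.18 in their deviations, so numbers were not taken as pairs. The number of arrays limits the precision. Slides and scan dates were not used here. Alternatives were other scalings, filters, weights, moderation, a replicate block and left-out arrays.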

Additional observations from a re-analysis of the deposited data

How the results depend on the processing

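The choice gave 72 rows, and 58 to 89 with another scaling, without the dimmest 25% of rows or with the second condition dropped. Asking for a distance of at least 0.1 gave 35 rows, fewer by construction. Leaving out 1 array gave 72 to 140, with the highest counts (140, 128 and 125) without a control array. Members called in G12-CBS 24 h against DS56 numbered 4, but 7 with array weights and 2 to 5 with 1 array left out (2 without G12-CBS 24 h replicate 3). The cause was not tested. For G12-CBS 72 h against DS56 there were 13 called, 12 to 15 under other settings and 11 to 13 with 1 array left out. For G12-CBS 72 h against G12-CBS 24 h there were 17, 14 to 18, and 12 to 18. With the replicate block the 3 comparisons gave 3, 12 and 15. Only 2 of 18 same-numbered pairs correlated above 0.1, and 6 of 12 arrays were closest to their own number. Single rows were checked only for the members named by rule above. Other members, such as YBR063C and YDR508C, were not checked. Among the rows checked, no difference past the threshold reversed. Some below it changed sign. Of G12-CBS 72 h against G12-CBS 24 h, YLR407W was 0.01676 after quantile normalization (also without YDR502C) and 0.003193 after centring. Centring also gave -0.0011 for YNL031C in G12-CBS 24 h against DS56 and 0.003019 for YOR096W in G12-CBS 72 h against DS56. With 1 array left out, G12-CBS 72 h against G12-CBS 24 h ranged from -0.209 to 0.04369 for YCL028W, -0.1198 to 0.09481 for YLR407W and -0.1218 to 0.03061 for YOR106W. G12-CBS 24 h against DS56 ranged from -0.001763 to 0.2293 for YFR012W-A, -0.03584 to 0.0491 for YNL031C, -0.04034 to 0.09869 for YOL080C and -0.1232 to 0.01434 for YPL240C. G12-CBS 72 h against DS56 ranged from -0.154 to 0.1036 for YOR096W and -0.04809 to 0.08942 for YPL240C. Of the checked rows' sizes against control under other scalings and control arrays left out, 400 stayed within the spread between replicates (1 SD). The other 32 did not. These include shifts at YLR075W that are near 0, because its replicates in both G12-CBS groups and the control are tied and their SD is 0. Of the checked rows' single tests between engineered groups, 1375 kept their sign and their side of the threshold. Of the others, 33 lost a call, 9 gained one and 20 changed sign, values equal within 1e-06 being taken as ties. With 3 cultures a group, small differences near the median level cannot be resolved.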
